A study of Homo sapiens with 4 samples.

Results

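The cells described here are 4 hashtag samples of OVCAR5, a human ovarian carcinoma cell line: HTO4/HTO10 (240 cells), HTO1/HTO8 (267 cells), HTO7/HTO8 (137 cells) and HTO5/HTO9 (264 cells). Among runs of 6 samples in tag order, each had the third-highest summed level of interferon gamma genes in its run. That was 90.9%, 79.0%, 58.3% and 52.2% of the run's highest level, and ranks 18, 11, 6 and 5 of all 24. The 4 samples make up 908 of the 5298 cells that carry a pair of hashtags in use, out of 6408 cells kept from 10660 barcodes. A hashtag sample is the set of cells marked by the same 2 antibody-bound oligonucleotide tags, which tell the cultures of a pooled library apart. A cell was kept with at least 1000 genes detected and at most 20% of its UMIs (unique molecular identifiers, each standing for a captured RNA molecule) from mitochondrial genes, and was given a pair where both of its highest tags had at least 3 times the UMIs of the next tag. Cells just inside these limits had 1006 genes, 19.9% mitochondrial UMIs and a tag ratio of 3, and cells just outside had 997 genes, 20.1% and 2.98.

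All cultures were the same line, exposed to supernatant taken from tumor cells grown together with T cells, at 6 levels (none, undiluted, and diluted 5, 25, 125 and 625 times) for 2, 6, 12 or 24 h. Every condition was 1 culture. The cultures were pooled, and single cells were sequenced from the 3′ end of their RNA after capture in droplets. No label used here says which tag pair marks which level or time, so no sample is given either. The 4 samples are compared in the order above, which is the order in which they were chosen and is not labelled as an order of time. The cells were selected on their tag counts, gene number and mitochondrial share, and the pairs were chosen by the measured levels of interferon-responsive genes, so those levels are a description. With 1 culture for each condition there is no test and no p-value, and the 95% intervals printed here cover counting error only, not the spread between cultures. Intervals of levels and ratios also treat each UMI as independent. For a gene that is uneven between cells they are therefore too narrow.

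Activated T cells release interferon gamma and tumor necrosis factor, which epithelial tumor cells sense through separate receptors. Interferon gamma acts through the kinases JAK1 and JAK2 and induces transcription factors such as IRF1, which bind ISRE elements; the genes switched on include chemokines for T cells, guanylate-binding proteins, and the peptide-loading machinery of MHC class I and, later, class II. Tumor necrosis factor acts through NF-κB, which binds κB elements, induces chemokines for neutrophils, and also induces its own inhibitors NFKBIA and TNFAIP3.

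The start regions of 5 genes that recur below are shown because they hold the elements just named and because their genes took different courses over the 4 samples. Each is 260 bases from RefSeq on GRCh38.p14, from 250 bases before the annotated start to 10 bases from the start on, written 5′ to 3′ on the gene's strand. Capitals mark matches, on either strand, to GAAANNGAA (an ISRE core), GGGNNNTTC (a κB core) or GGAATTTCC (a further κB form); matches of the κB forms can overlap. Over 35116 such windows of the annotation, 7.22% hold GAAANNGAA, 13.8% hold GGGNNNTTC and 0.421% hold GGAATTTCC. A further form that was looked for, TTCNNNGAA (GAS), is held by 6.83% of windows and had no match in these 5 regions. A match is a match of letters and says nothing of binding in these cells.
CXCL10, chr4:76023488-76023747, minus strand: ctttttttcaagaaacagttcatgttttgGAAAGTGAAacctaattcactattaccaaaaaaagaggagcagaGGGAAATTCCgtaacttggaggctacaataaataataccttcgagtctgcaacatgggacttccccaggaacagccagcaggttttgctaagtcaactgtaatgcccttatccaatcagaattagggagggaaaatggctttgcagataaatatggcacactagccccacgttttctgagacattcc
GBP4, chr1:89198933-89199192, minus strand: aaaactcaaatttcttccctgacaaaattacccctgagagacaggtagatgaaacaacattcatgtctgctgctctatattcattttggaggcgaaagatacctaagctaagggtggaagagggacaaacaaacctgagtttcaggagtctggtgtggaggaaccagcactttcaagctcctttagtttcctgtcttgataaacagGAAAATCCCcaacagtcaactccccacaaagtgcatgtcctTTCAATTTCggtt
CXCL8, chr4:73740319-73740578, plus strand: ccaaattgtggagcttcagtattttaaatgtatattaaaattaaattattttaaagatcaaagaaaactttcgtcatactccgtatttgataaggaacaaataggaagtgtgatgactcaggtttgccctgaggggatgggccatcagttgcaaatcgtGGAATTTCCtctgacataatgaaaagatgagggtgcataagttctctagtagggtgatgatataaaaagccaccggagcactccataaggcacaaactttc
TNFAIP3, chr6:137867009-137867268, plus strand: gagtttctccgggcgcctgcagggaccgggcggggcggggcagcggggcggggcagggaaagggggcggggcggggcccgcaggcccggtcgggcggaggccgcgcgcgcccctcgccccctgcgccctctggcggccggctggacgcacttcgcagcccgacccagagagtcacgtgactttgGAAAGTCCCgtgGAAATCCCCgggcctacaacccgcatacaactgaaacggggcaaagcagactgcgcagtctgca
NFKBIA, chr14:35404740-35404999, minus strand: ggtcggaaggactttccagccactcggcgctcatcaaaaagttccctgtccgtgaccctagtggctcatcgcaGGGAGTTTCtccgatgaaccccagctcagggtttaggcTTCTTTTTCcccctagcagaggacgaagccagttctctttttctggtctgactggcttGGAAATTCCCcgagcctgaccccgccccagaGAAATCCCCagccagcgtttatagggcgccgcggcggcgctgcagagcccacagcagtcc
CXCL10 held an ISRE core 221 bases before the start and a κB core 177 bases before it, which overlaps the further κB form. GBP4 held a κB core 44 bases before the start and an ISRE core that crosses the start. CXCL8 held the further κB form 91 bases before the start, and TNFAIP3 held κB cores at 66 and 54 bases before it. NFKBIA held κB cores at 177, 80 and 50 bases before the start, the one at 80 overlapping the further form, and an ISRE core at 139.

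The samples were alike in depth per cell. Median UMIs per cell were 14089.5, 13908, 13482 and 13335.5 in the order given, and the median mitochondrial share was 10.2%, 9.51%, 11.7% and 11.2%, within the 8.67% to 13.8% seen over all 24 hashtag samples. Summed UMIs were 3485884, 3854042, 1863154 and 3764096, so HTO7/HTO8 had the widest counting intervals; there, 3 counts amount to 1.61 CPM (counts in each 1e6 UMIs of the sample). By the rule used, a barcode could be given only 1 pair. The 8 epithelial markers were uneven. KRT18 stood at 1495 to 1712 CPM and KRT8 at 664 to 783 CPM, while KRT7 fell from 868 to 176 CPM. CDH1 (2.59 to 4.83 CPM) and PAX8 (2.68 to 6.38 CPM) were low. Of the 8 mesenchymal markers, VIM stood at 2168 to 2600 CPM and 5 had 0 counts in all 4 samples. The T cell markers CD3D, CD3E, CD3G and PTPRC had 0 counts in all 4 samples, and the 12 T cell markers summed to between 2.29 and 6.98 CPM. A small population with at least 10 UMIs of KRT81 made up 2.08%, 3.75%, 3.65% and 3.03% of cells. Its VIM level over the 4 samples was 332 CPM, against 2447 CPM in the other cells, and 731 CPM in HTO5/HTO9. The part of this population in the results was not tested beyond the values without it given in the closing section.

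The 3 marker genes rose steeply and then parted at the last step. IDO1, a tryptophan-degrading enzyme induced by interferon gamma (GRCh38 chr8:39902275-39928444), stood at 27.0 CPM in HTO4/HTO10, 119 in HTO1/HTO8, 1157 in HTO7/HTO8 and 1411 in HTO5/HTO9. It rose at every step, by 52.3-fold in all (42.7 to 64.9) and by 1.22-fold at the last step (1.16 to 1.28). A step is called a rise or a fall here where the 95% counting interval of its ratio leaves out 1.

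GBP4, a guanylate-binding GTPase (chr1:89181148-89198932), stood at 22.7, 157, 369 and 366 CPM. IL32, a secreted inflammatory mediator (chr16:3065297-3082192), stood at 115, 261, 646 and 663 CPM. Both rose at the first 2 steps, while the last step gave a ratio of 0.994 for GBP4 (0.906 to 1.09) and 1.03 for IL32 (0.957 to 1.10), so HTO7/HTO8 and HTO5/HTO9 were not told apart. From first to last the ratio was 16.2 for GBP4 (12.9 to 20.5) and 5.75 for IL32 (5.17 to 6.40). These are genes the choice of the samples used, and their values are given as a description.

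The low IDO1 value of HTO4/HTO10 rested partly on 2 cells. Its 94 UMIs came from 46 of 240 cells, and the 2 highest cells held 23 and 16 of them, against 3 in the next. These 2 cells also had 246 and 123 UMIs of the third tag, where the median of the sample was 25. Without them the level was 15.9 CPM in place of 27.0 and the rise from first to last 88.5-fold (67.9 to 118).

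Over all genes, more were higher than lower in HTO5/HTO9 against HTO4/HTO10, and most of the distance was covered before the last step. A mean of 20 CPM or more was reached by 5743 genes. Of these, 114 (1.99%) were at least 2-fold higher on the log2(CPM + 10) scale and 51 (0.888%) at least 2-fold lower; the median difference of all genes was −0.06. The first step had 46 genes 2-fold higher (0.801%) and 12 lower (0.209%), the second 31 (0.54%) and 16 (0.279%), and the last only 4 (0.0697%) and 2 (0.0348%). The 114 higher genes had covered a median of 31.8% of their change at HTO1/HTO8 and 85.4% at HTO7/HTO8. Over all 4 samples, 198 genes (3.45%) had a range of at least 2-fold: 62 of these (1.08%) were highest in HTO4/HTO10, 17 (0.296%) in HTO1/HTO8, 39 (0.679%) in HTO7/HTO8 and 80 (1.39%) in HTO5/HTO9. At the last step 47 of the 114 higher genes rose, 9 fell and 58 had an interval that holds 1.

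**Figure D1:**
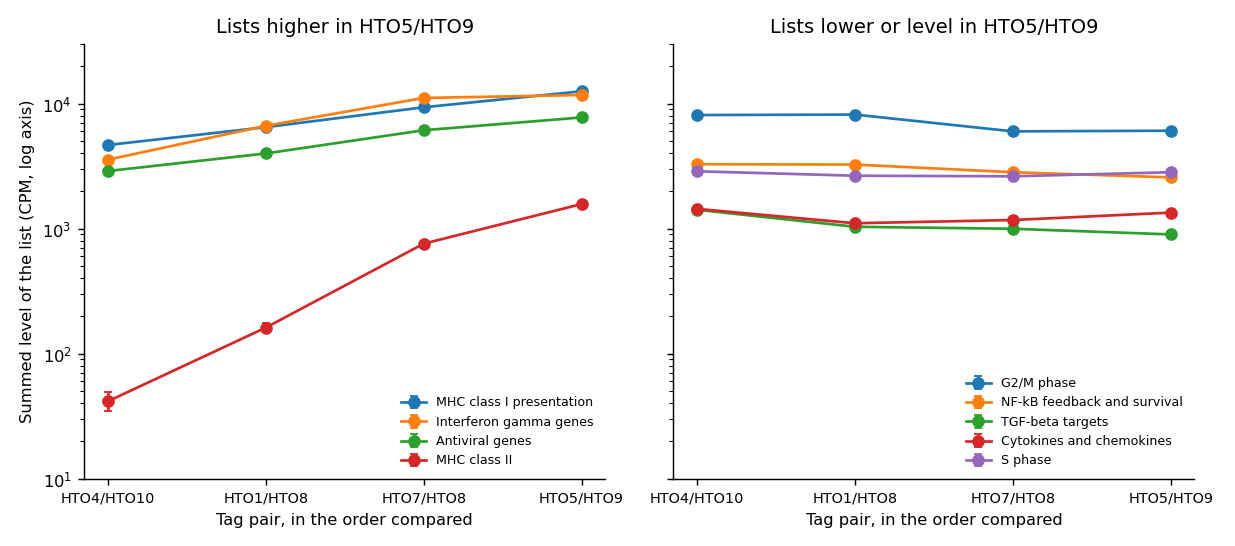
Summed level of 9 gene lists (CPM, log axis) in the 4 hashtag samples, in the order HTO4/HTO10, HTO1/HTO8, HTO7/HTO8, HTO5/HTO9, with exact Poisson 95% intervals that cover counting error only. MHC class II climbs from 41.6 to 1573 CPM and MHC class I from 4668 to 12559, the interferon gamma list flattens between 11106 and 11722, and the NF-κB list goes down from 3278 to 2570.

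Many genes of antigen presentation and of the antiviral state still rose at the last step, while the interferon gamma list was divided. Over all genes tested, 6.32% rose and 7.1% fell between HTO7/HTO8 and HTO5/HTO9 by the counting interval. Of the members that could be tested, 11 of 15 MHC class I genes, 5 of 5 MHC class II genes and 19 of 32 antiviral genes rose there, and none of these fell. Of 31 interferon gamma genes, 7 rose, 7 fell and 17 had an interval that holds 1. The 4 lists hold 81 tested genes, a few of them in more than 1 list, and an interval is narrower for an abundant gene, so the counts are not on an equal footing.

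The summed MHC class I list stood at 4668, 6483, 9351 and 12559 CPM, and its last step was 1.34-fold (1.32 to 1.37). Of its 15 tested members 14 were 2-fold higher from first to last, 10 rose at every step (against 0.679% of all genes), and all 15 were highest in HTO5/HTO9, where 19% of all genes tested had their highest value. The median log2 difference of its members was 1.54, against −0.06 for all genes.

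Its members climbed together from the peptide-cutting end to the surface. PSMB9, a subunit of the immunoproteasome that cuts peptides for presentation, stood at 86.6, 248, 545 and 765 CPM, with a last step of 1.40 (1.31 to 1.51). PSME2, part of the proteasome activator, stood at 254, 647, 963 and 1319 CPM and rose 1.37-fold at the last step. B2M, the light chain of every class I molecule, stood at 2348, 2659, 3644 and 4885 CPM, and its last step was as large as its second, 1.34 (1.30 to 1.38) after 1.37 (1.33 to 1.41). The class I heavy chains are near-identical to each other, and reads may have been split among them. TAP1, which carries peptides into the endoplasmic reticulum and is named here after its values were seen, was an exception at 76.6, 202, 363 and 380 CPM, with a last step whose interval holds 1.

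MHC class II, which presents peptides to helper T cells and is silent in most epithelial cells, went from almost nothing to a clear level. The list, of which 5 members were tested, summed to 41.6, 162, 758 and 1573 CPM, a rise of 37.8-fold (32.1 to 44.9), with steps of 3.89, 4.69 and 2.07; with a tag margin of 2 in place of 3 the rise was 23.8-fold (20.9 to 27.2). All 5 were 2-fold higher from first to last, 4 rose at every step, and all were highest in HTO5/HTO9, with a median log2 difference of 3.30. CD74, the invariant chain that guides class II molecules (chr5:150401637-150412929), carried most of the sum at 24.7, 86.9, 488 and 1062 CPM and rose 2.18-fold at the last step (2.02 to 2.34).

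The class II molecules themselves appeared late in the order. HLA-DRA had 8, 23, 107 and 490 UMIs, or 2.29, 5.97, 57.4 and 130.2 CPM, a last step of 2.27 (1.84 to 2.82). HLA-DRB1 stood at 2.01, 5.45, 29 and 90.9 CPM, with a last step of 3.13 (2.35 to 4.26). CTSS, the protease that trims CD74 in the class II pathway, had already reached 31.9 CPM in HTO1/HTO8 from 2.01, and stood at 88.6 and 109 in the samples that follow. Of the 4 genes that were 2-fold higher at the last step, 3 were of this pathway (CD74, HLA-DRA and HLA-DRB1) and the fourth was GBP5, a guanylate-binding protein, at 5.45, 13.2, 51.0 and 137 CPM.

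Genes of the antiviral state rose with them by smaller steps. The list summed to 2890, 3995, 6126 and 7754 CPM, 2.68-fold in all (2.62 to 2.75) and 1.27-fold at the last step (1.24 to 1.29). Of 32 tested members 22 were 2-fold higher from first to last, none lower, and 26 were highest in HTO5/HTO9; the median log2 difference was 1.45. ISG15, a ubiquitin-like modifier, stood at 265, 367, 749 and 1023 CPM, and ISG20, an RNA-degrading enzyme, at 51.6, 102, 341 and 524 CPM. IFI35, a regulator of antiviral signalling, stood at 41.0, 118, 255 and 362 CPM. IFI27 went another way, at 933, 854, 720 and 876 CPM, and its highest value was in HTO4/HTO10.

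The interferon gamma list rose and then levelled. It summed to 3562, 6648, 11106 and 11722 CPM, with steps of 1.87, 1.67 and 1.06 (1.04 to 1.07), and 26 of 31 tested members were 2-fold higher from first to last with a median log2 difference of 1.99. Its highest values were divided between the last 2 samples, 14 members in HTO7/HTO8 and 13 in HTO5/HTO9, where 21% and 19% of all genes tested were highest. Members that still rose included WARS, the tryptophanyl-tRNA synthetase, at 107, 412, 1098 and 1429 CPM.

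The chemokines that draw T cells through CXCR3 had stopped rising by the last step. CXCL10 (chr4:76021117-76023497), whose start region is shown above, stood at 140 CPM in HTO4/HTO10, 749 in HTO1/HTO8, 1346 in HTO7/HTO8 and 1287 in HTO5/HTO9, a last step of 0.956 (0.911 to 1.00). CXCL11 stood at 21.8, 150, 576 and 546 CPM, with a last step of 0.948. CXCL9 fell at the last step, from 145 to 112 CPM after 12.3 and 23.4, a ratio of 0.771 (0.660 to 0.901). GBP1 fell too, at 83.5, 309, 547 and 459 CPM, a last step of 0.839 (0.776 to 0.907), while its relative GBP5 rose 2.68-fold (2.15 to 3.37) at the same step. Guanylate-binding proteins are a family of similar sequences, and reads may have been split among them.

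IRF1 and the inhibitor SOCS1 did not share 1 course. IRF1, a transcription factor induced early by interferon gamma and NF-κB (chr5:132481609-132490798), was highest in HTO4/HTO10 and stood at 1527, 1029, 901 and 889 CPM, with a last step of 0.987 (0.931 to 1.05). It was the only interferon gamma member highest in that sample. SOCS1, an inhibitor of JAK kinases, stood at 12.6, 32.4, 44.5 and 34.0 CPM. Of 17 tested genes for cytokine receptors, JAK kinases and SOCS proteins, 1 was 2-fold higher from first to last and none lower, and the list's sum was flat at 1222, 1281, 1235 and 1138 CPM.

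**Figure D2:**
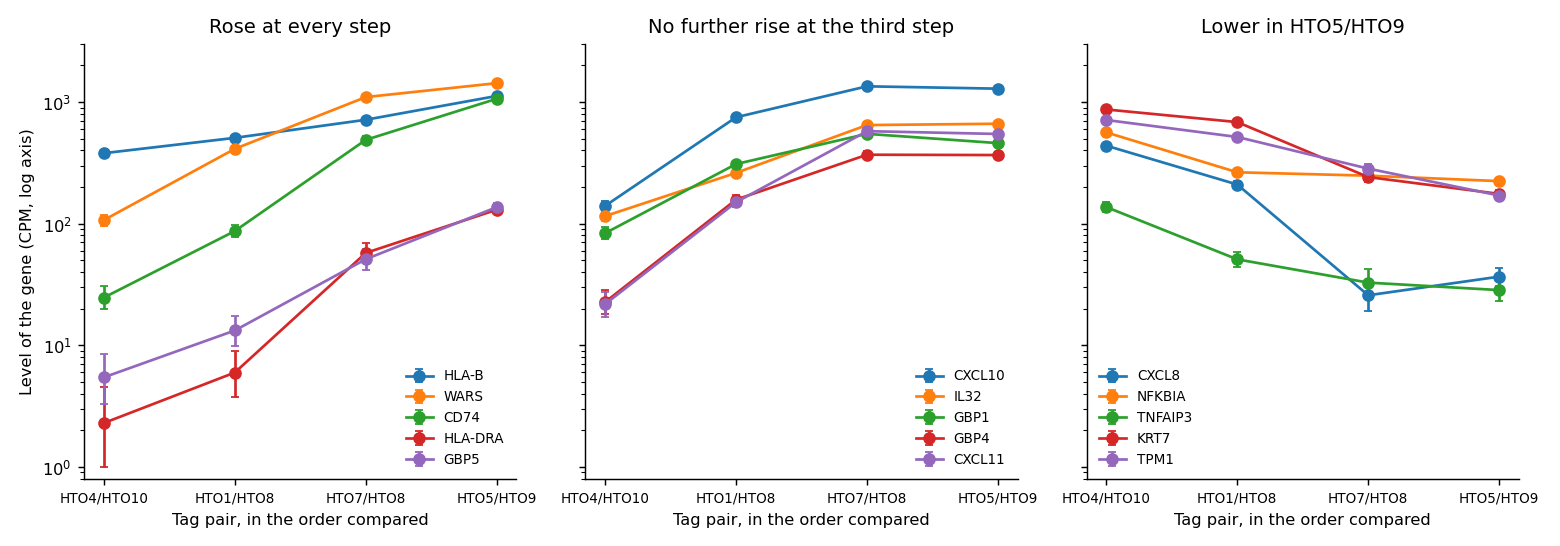
Levels of 15 single genes (CPM, log axis) in the 4 hashtag samples, in the order HTO4/HTO10, HTO1/HTO8, HTO7/HTO8, HTO5/HTO9, with exact Poisson 95% intervals that cover counting error only. CD74 climbs from 24.7 to 1062 CPM, CXCL10 is level between 1346 and 1287 CPM, and CXCL8 drops from 437 to 25.8 CPM before 36.7.

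The NF-κB list as a whole moved little, while the feedback inhibitors NFKBIA and TNFAIP3 were highest in the first sample. The list summed to 3278, 3254, 2826 and 2570 CPM, a ratio of 0.784 from first to last (0.763 to 0.806). None of its 25 tested members was 2-fold higher and 6 were 2-fold lower, and the median log2 difference was −0.36 against −0.06 for all genes. In HTO4/HTO10 8 members had their highest value and in HTO1/HTO8 14, against 2 and 1 in the samples that follow; of all genes tested, 33% and 27.1% were highest in the first 2.

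The inhibitors NFKBIA and TNFAIP3 had already fallen at the first step, where the list as a whole was divided. Of its 25 tested members 9 rose and 6 fell there, against 12.2% and 10.6% of all genes tested. NFKBIA, the inhibitor that holds NF-κB in the cytoplasm (chr14:35401511-35404749), stood at 563, 264, 248 and 224 CPM, a first step of 0.470 (0.435 to 0.507) and later steps whose intervals hold 1. TNFAIP3, an enzyme that edits ubiquitin chains to stop the signal (chr6:137867188-137883312), stood at 137, 50.9, 32.7 and 28.4 CPM, 0.208 from first to last (0.167 to 0.257). REL, a subunit of NF-κB, stood at 48.5, 15, 8.59 and 14.9 CPM. IER3, a survival gene of the early response, dropped from 375 to 112 CPM and then rose to 132 and 177.

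Other members of the list took a different course. ICAM1, an adhesion molecule for leukocytes, rose to 568 CPM in HTO1/HTO8 from 343 and then fell to 417 and 269, with a last step of 0.644 (0.586 to 0.708). SOD2, the mitochondrial superoxide dismutase, rose from 218 to 340 and 418 CPM and was level at 424. These 2 genes and the inhibitors thus had their highest values in 3 different samples.

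Several chemokines and cytokines of inflammation were lower by more than the NF-κB list. CXCL8, the main neutrophil chemokine (chr4:73740506-73743716), stood at 437, 210, 25.8 and 36.7 CPM, 0.0838 from first to last (0.0699 to 0.0998). Its last step was 1.42 (1.02 to 2.02), a rise by the counting interval that rests partly on few cells. In HTO5/HTO9, 2 cells held 53 of the 138 CXCL8 UMIs. Without the 2 highest cells of each sample, HTO7/HTO8 stood at 19.2 CPM (35 UMIs) and HTO5/HTO9 at 22.9 CPM (85 UMIs). In HTO1/HTO8, 1 cell held 137 of the 808 CXCL8 UMIs, and without that cell the level was 174.9 CPM. IL1B, a pyrogenic cytokine, stood at 122, 80.7, 7.51 and 14.9 CPM. PTX3, a soluble pattern-recognition protein, stood at 469, 545, 98.8 and 114 CPM, with its drop at the second step. CCL2, a monocyte chemokine named after its values were seen, stood at 51.9, 69.8, 13.4 and 6.11 CPM.

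The cytokine list as a whole did not show these courses, since IL32 and TNFSF10, the death ligand TRAIL, belong to it too and were higher. It summed to 1439, 1105, 1172 and 1344 CPM, with 2 of 11 tested members 2-fold higher from first to last and 3 lower. At the last step 4 of the 11 rose and 1 fell, against 6.32% and 7.1% of all genes tested. CXCL1, a further neutrophil chemokine with near-identical relatives, stood at 193, 114, 91.8 and 121 CPM. Its relative CXCL3, named after its values were seen, stood at 106, 66.7, 68.2 and 121 CPM, with a last step of 1.78 (1.46 to 2.18). SAA1, an acute-phase protein, rose with the interferon gamma genes instead, at 209, 385, 719 and 680 CPM, with a last step whose interval holds 1; SAA2, its near-identical neighbour, stood at 82.0, 162, 261 and 255 CPM. Of the 7 tested acute-phase and complement genes 2 were 2-fold higher and 2 lower.

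A few genes fell along the whole order. Of the 51 genes 2-fold lower in HTO5/HTO9 than in HTO4/HTO10, 8 fell at every step (0.139% of genes tested): KRT7, TPM1, THBS1, CCN1, TGFBI, FN1, CCDC80 and PLK2. With stricter cells, 2 genes fell at every step. KRT7, a keratin of simple epithelia (chr12:52232520-52252186), stood at 868, 684, 242 and 176 CPM, 0.202 from first to last (0.186 to 0.220). TPM1, an actin-binding tropomyosin, stood at 711, 516, 283 and 170 CPM. THBS1, a secreted matrix protein, stood at 119, 92.4, 32.2 and 20.2 CPM.

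Of the 10 tested genes in the TGF-β list, which holds several of these matrix genes, 6 were 2-fold lower and none higher. The list's sum was 1415, 1035, 998 and 899 CPM, and its median log2 difference was −1.17 against −0.06 for all genes. In HTO1/HTO10, HTO7/HTO10, HTO4/HTO8 and HTO2/HTO9, the samples with the lowest interferon gamma level of each run, the sum was 1608, 1195, 858 and 753 CPM. A fall of the sum was thus not particular to the 4 samples described here. CCN2, a matrix-associated growth factor, dropped from 85.8 to 21.3 CPM at the first step and stood at 14.0 and 18.1 after it. ID3, an inhibitor of helix-loop-helix factors, stood at 191, 69.5, 56.9 and 55.0 CPM, while its relative ID1 rose, at 215, 240, 324 and 341 CPM.

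Genes of mitosis stepped down once, between HTO1/HTO8 and HTO7/HTO8. The G2/M list summed to 8106, 8175, 6001 and 6073 CPM, with a second step of 0.734 and a last step of 1.01 (0.989 to 1.04). At the second step 36 of its 45 members fell, against 18.1% of all genes tested, and 44 of 45 had their highest value in one of the first 2 samples. Of all genes tested, 33% were highest in HTO4/HTO10 and 27.1% in HTO1/HTO8. No G2/M member was 2-fold lower, and the median log2 difference of the list was −0.45. TOP2A, the topoisomerase that untangles chromosomes, stood at 489, 439, 349 and 337 CPM, and AURKA, a mitotic kinase, at 331, 415, 228 and 243 CPM. The S-phase list, by contrast, summed to 2877, 2651, 2622 and 2828 CPM, a ratio of 0.983 from first to last (0.956 to 1.01), or 1.03 with median-of-ratios scaling. In summed counts, fewer cells in a phase and less RNA per cell cannot be told apart.

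Early-response and stress genes moved by less. Of 12 tested immediate early genes 2 were 2-fold lower and none higher, and JUN stood at 242, 199, 145 and 142 CPM. The heat shock list fell from 15570 and 15846 to 14760 and 12602 CPM, with 9 of 14 members falling at the last step, where 7.1% of all genes fell. HSPA1A, an inducible chaperone with a near-identical copy, rose to 92.9 CPM in HTO7/HTO8 from 38.7 and 72.7 and returned to 38.8 in HTO5/HTO9. HSPA8, the constitutive chaperone, followed at 1332, 1652, 1958 and 1346 CPM. HSPA5, the chaperone of the endoplasmic reticulum, rose at the second step and fell at the last, at 220, 209, 417 and 374 CPM.

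Many genes of cell death rose at the first step and none at the last. Their sum was 1006, 1324, 1501 and 1494 CPM, and 4 of 15 tested members were 2-fold higher from first to last, none lower. At the first step 11 of 15 rose (12.2% of all genes did), and at the last step none rose or fell. TNFSF10 stood at 4.59, 17.1, 81.6 and 89.3 CPM. GSDMD, the pore-forming gasdermin, stood at 18.9, 48.3, 85.9 and 95.9 CPM. Hypoxia and glycolysis genes were flat, with a sum of 8098, 7997, 8330 and 8282 CPM.

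Seen among all 24 hashtag samples, the 4 stood lower within their runs the further along the order they were. When the 24 pairs are put in tag order and cut into 4 runs of 6, each of the 4 samples is at the same place of its run, and each had the third-highest interferon gamma level there. As a share of the highest level in the run, the list stood at 90.9%, 79.0%, 58.3% and 52.2%. That is so although the level itself rose, from rank 18 of 24 to ranks 11, 6 and 5. The lowest level in each run was far below, at 859, 743, 738 and 874 CPM. The tags give the runs and no label gives them a meaning.

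The gene groups differed in how close to the run's highest level they were. MHC class I stood at 98.0%, 96.3%, 90.6% and 77.5% of it, and the antiviral list at 88.4%, 93.8%, 81.1% and 82.1%. MHC class II stood at 83.8%, 78.9%, 72.9% and 65.3%, though in the run of HTO4/HTO10 all 6 samples were low, at 33.4 to 49.6 CPM. These shares are of a level and not of a rise: the lowest MHC class I level of a run was 3734, 3581, 3146 and 3064 CPM, well above 0. The NF-κB list was lower in each of the 4, at 59.4%, 53.4%, 40.0% and 32.9%, though it too was the third-highest in every run.

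The G2/M list took ranks 3, 4, 4 and 4 in its runs, where the lowest level was 7226, 7780, 4109 and 2498 CPM and the highest 8583, 9368, 7874 and 7553 CPM.

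Single genes differed more widely. CXCL8 stood at 53.6%, 41.7%, 19.2% and 15.8% of its run's highest level, and IL1B at 55.0%, 36.1%, 5.54% and 5.42%. CXCL9 went from 100% to 38.9%, 27.7% and 8.97%, and CXCL10 from 93.3% to 64.8%, 37.8% and 33.0%. IDO1 stood at 96.6%, 58.0%, 51.6% and 50.1%, and CD74 at 87.3%, 70.0%, 71.4% and 66.7%. The first IDO1 share rests partly on the 2 highest cells of HTO4/HTO10, without which its level was 15.9 CPM in place of 27.0.

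**Figure D3:**
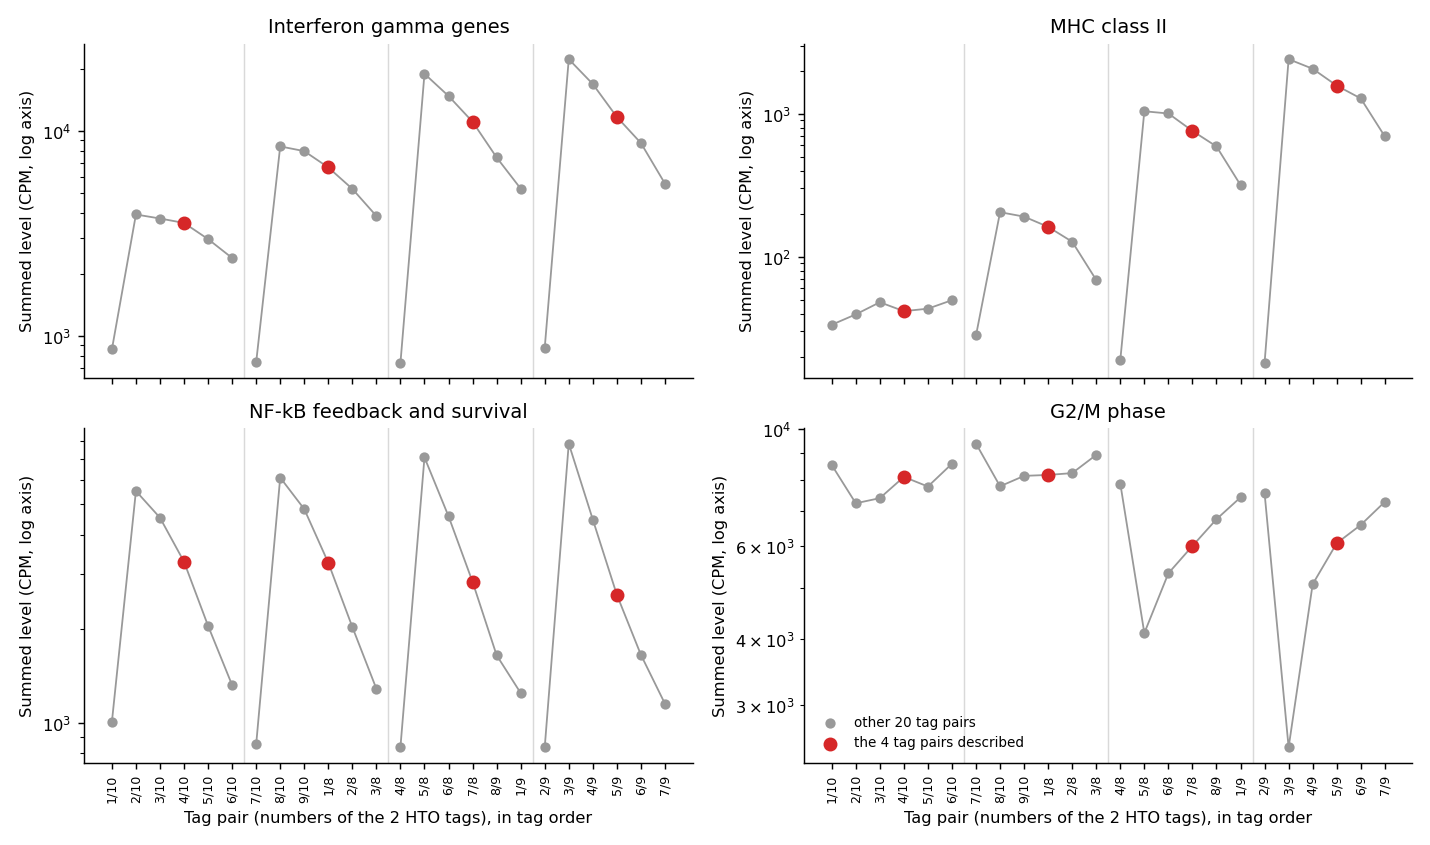
Summed level of gene lists (CPM) in all 24 hashtag samples, put in tag order and cut into 4 runs of 6, with the 4 samples described here marked. In each run the marked sample has the third-highest interferon gamma level, at 90.9%, 79.0%, 58.3% and 52.2% of the highest.

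Cell by cell, the interferon gamma score shifted at its low end, its median and its high end alike. Cells were thinned to 3000 UMIs each so that depth did not set the counts, which left 238, 264, 137 and 262 cells, and the score is a cell's summed UMIs over the list. Its median was 9, 18, 32 and 33.5 UMIs, with the 5th and 95th percentiles at 3 and 18.2 in HTO4/HTO10, 8 and 35 in HTO1/HTO8, 14.8 and 56.2 in HTO7/HTO8, and 16 and 58.0 in HTO5/HTO9. The 5th percentile of HTO5/HTO9 was reached by 13.4%, 71.2%, 92.0% and 95.4% of cells. Cells at or below the 95th percentile of HTO4/HTO10 made up 95%, 51.5%, 13.9% and 8.40%, so the first and last samples overlapped little and HTO1/HTO8 lay across both.

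The spread between cells relative to the mean was lower in HTO5/HTO9 than in HTO4/HTO10 for MHC class I, and for interferon gamma genes its order depended on the cells kept. The measure is the variance beyond Poisson sampling divided by the squared mean. For the interferon gamma score it was 0.159, 0.133, 0.142 and 0.121, inside the 0.0593 to 1.03 of the other 20 samples, whose median was 0.128. For MHC class I it was 0.178, 0.0780, 0.0628 and 0.0474. The last value was the lowest of all 24, but nearly equal to the 0.0475 of HTO4/HTO9. For the NF-κB score, whose median was 9, 9, 8 and 7 UMIs, it was 0.137, 0.122, 0.134 and 0.134, against a median of 0.0976 in the other 20. With stricter cells (2000 genes or more and a mitochondrial share of 10% or less, which left 114, 151, 37 and 80 cells) the interferon gamma values were 0.125, 0.127, 0.240 and 0.178. The NF-κB values were then 0.0820, 0.136, 0.117 and 0.254, and the MHC class I values 0.139, 0.0519, 0.139 and 0.0873, so no steady course over the 4 samples held for any of the 3 scores.

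**Figure D4:**
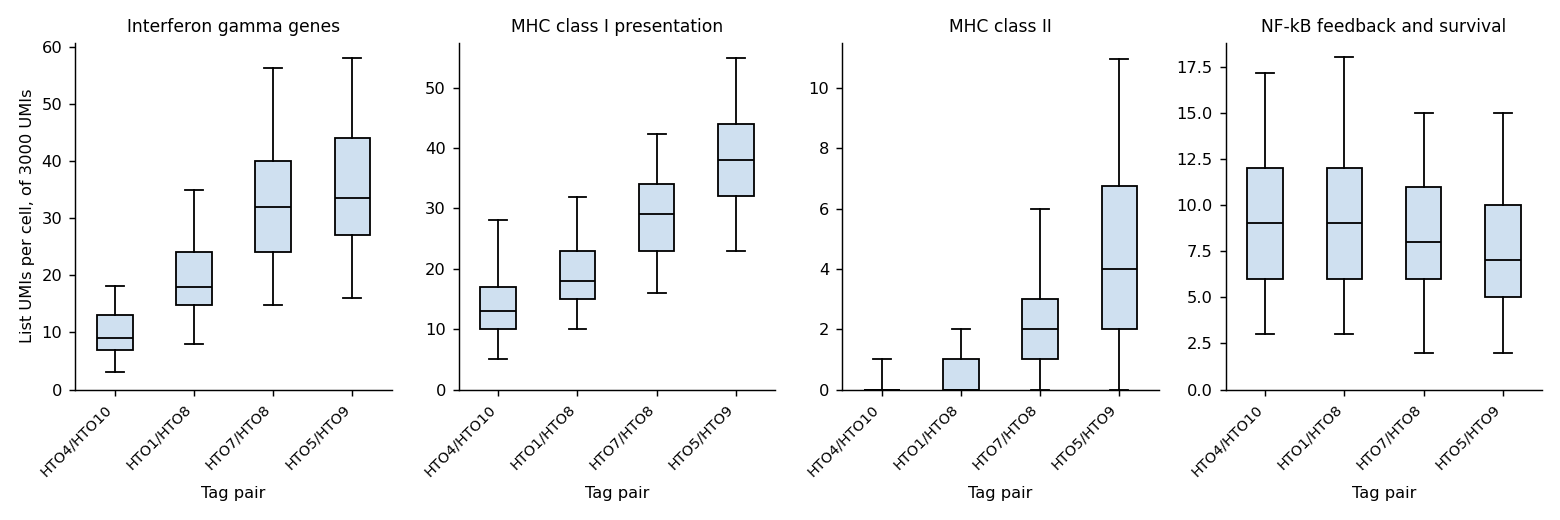
Distribution over cells of list scores (UMIs per cell, each cell thinned to 3000 UMIs) in the 4 hashtag samples; the line is the median, the box the middle 50% of cells, and the whiskers the 5th and 95th percentiles. The interferon gamma score shifts from a median of 9 to 33.5 UMIs, the MHC class I score from 13 to 38, and the NF-κB score stays between 7 and 9.

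MHC class II was seen in few cells of HTO4/HTO10 and in nearly all of HTO5/HTO9. The score was 0 in 212 of 238 cells of HTO4/HTO10, 179 of 264 of HTO1/HTO8, 30 of 137 of HTO7/HTO8 and 16 of 262 of HTO5/HTO9. In HTO1/HTO10, which had the lowest interferon gamma level in the run of HTO4/HTO10, it was 0 in 194 of 216 cells. The first value was thus near the level of that sample. CD74 was seen in 6.72%, 17.4%, 64.2% and 90.5% of cells, where the lowest of all 24 samples had 1.22%, a level that free RNA in the droplets could give. In HTO4/HTO10 the 5 highest cells held 37.2% of the 86 CD74 UMIs, and in HTO5/HTO9 6.43% of 3999. HLA-DRA was still seen in only 22.9% of cells in HTO5/HTO9, after 0.42%, 1.89% and 15.3%.

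Marker genes became common in the same way. IDO1 was seen in 5.46%, 28.4%, 74.5% and 89.7% of cells, with 3.24% as the lowest of all 24, so the first value is near that level. Its variance over the mean was 4.16 in HTO7/HTO8 and 2.95 in HTO5/HTO9, where Poisson sampling gives about 1. GBP4 was seen in 7.56%, 34.5%, 67.9% and 63.7% of cells and IL32 in 23.5%, 45.1%, 83.9% and 79.8%, with a variance over the mean of at most 1.28 and 1.53. Variance over the mean depends on the mean, which was higher for IDO1 in these 2 samples. The variance beyond Poisson sampling divided by the squared mean was 0.922 and 0.451 there for IDO1. For GBP4 it was −0.0177 and 0.254, and for IL32 0.102 and 0.263. Among cells with the same number of UMIs, IDO1 was thus spread more unevenly than GBP4 and IL32 in HTO7/HTO8 and HTO5/HTO9 by both measures.

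The chemokines were uneven at both ends of the order. CXCL10 was seen in 24.4%, 64.0%, 78.1% and 73.7% of cells, with a variance over the mean of 1.90, 4.01, 4.96 and 4.47. Its variance beyond Poisson sampling divided by the squared mean went down instead, at 2.37, 1.33, 0.971 and 0.912. CXCL8 was seen in 54.2% and 28.8% of cells of the first 2 samples and in 4.38% and 6.49% of the others, against 1.83% as the lowest of all 24. Its remaining UMIs were in few cells: the 5 highest held 15%, 30.3%, 54.2% and 51.4% of them. IL1B, seen in 24.4%, 15.2%, 2.19% and 3.05% of cells, was concentrated likewise, with 64.3% and 58.9% of its UMIs in the 5 highest cells of the last 2 samples. IRF1 was seen in 97.1%, 92.8%, 89.1% and 89.3% of cells, with a variance over the mean of at most 1.51.

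**Figure D5:**
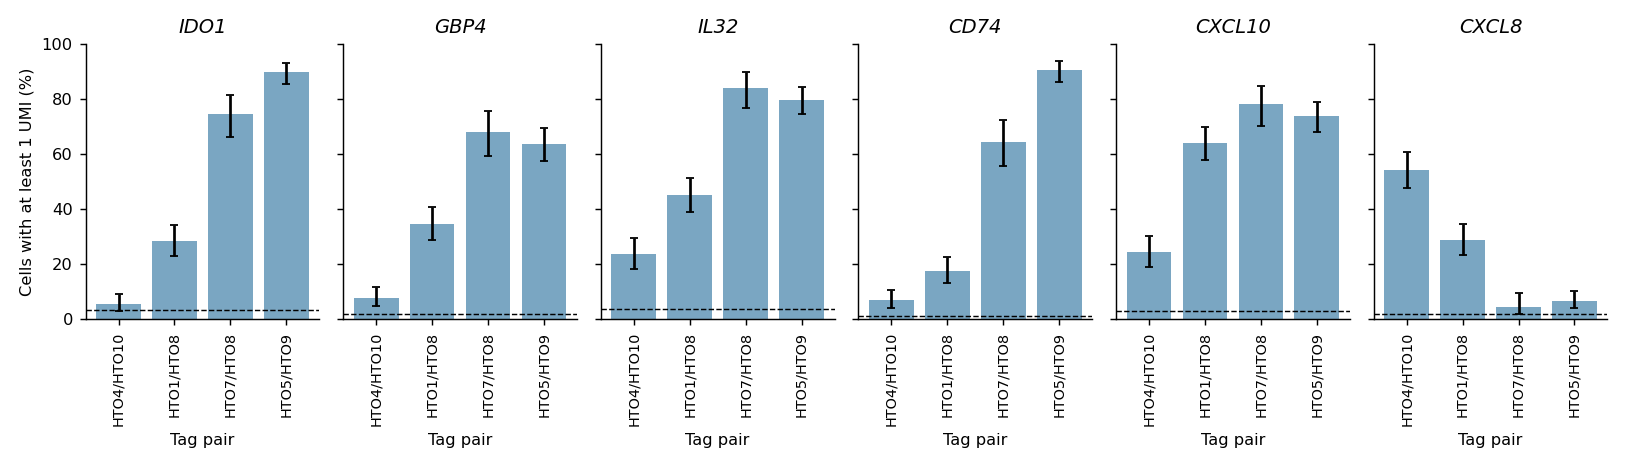
Share of cells with at least 1 UMI of each gene after thinning to 3000 UMIs (percent), in the 4 hashtag samples, with exact binomial 95% intervals that cover counting error only; the dashed line is the lowest share in any of the 24 hashtag samples. IDO1 goes from 5.46% to 89.7% and CD74 from 6.72% to 90.5%, while CXCL8 goes from 54.2% to 6.49%.

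Within a sample, cells with more interferon gamma UMIs also tended to have more NF-κB UMIs. Pearson's r over thinned cells was 0.414, 0.361, 0.462 and 0.377, against −0.0576 to 0.529 with a median of 0.261 in the other 20 samples. Interferon gamma and antiviral scores, whose lists hold no gene in common, had r of 0.342, 0.438, 0.494 and 0.574. For interferon gamma and G2/M scores r was near 0, at −0.0129, 0.00751, −0.106 and −0.0774. The cells of a tag pair share a culture and may come from either of the 2 gene-expression libraries of the pool, which the matrix does not tell apart here, so these values are a description.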

How the data were processed

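The authors' deposited values were counts of UMIs per gene, produced by Cell Ranger 5.0.1, per the file headers. Cell Ranger 2.1.1 and GRCh38 appear in the submitters' processing notes. Which annotation and cell-calling settings were used is not given in the sources used here. Coordinates came from GENCODE 29 on GRCh38 by gene identifier, found for 34616 of 36602 genes, and start regions from RefSeq on GRCh38.p14. The ISRE and κB cores were shortened after matches of longer forms had been seen.

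Counts were added up over the kept cells of each pair and scaled to CPM by that pair's total. A pair was in use if 100 barcodes or more had it as top tags. Of the barcodes whose top tags were these 4 pairs (551, 429, 339 and 480), 228, 123, 182 and 168 were lost to the limits on genes and mitochondrial share and 83, 39, 20 and 48 to the tag margin. Doublets were not called, and the tag margin was the only guard against them. A gene with a mean of at least 20 CPM was called higher or lower at 2-fold on log2(CPM + 10). A gene counted as rising or falling at every step had every step's interval on the same side of 1 and at least 2-fold in all. Intervals of 95% were exact Poisson for counts, conditional binomial for ratios and exact binomial for shares. With 1 culture a condition no test was run. For cell-level values each cell was thinned to 3000 UMIs, and shallower cells were left out.

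Genes named are the 3 markers, the 25 with the widest range over the 4 samples, the 10 with the largest fold among those that rose or fell at every step, and for each list the 3 tested members of highest mean and the 3 of widest range. The report names the exceptions where they stand, and gene-list members printed for other reasons were chosen after their values were seen. Some genes are not reported here. The samples, the lists and the markers were all chosen with earlier results of these data known. Scripts were tested on simulated data. Software was Python 3.11.15, numpy 2.4.6, scipy 1.17.1, pandas 2.3.3 and matplotlib 3.10.9.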

Additional observations from a re-analysis of the deposited data

How the results depend on the processing

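The ratio of the S-phase list, 0.983 with an interval that holds 1, was 1.03 (1.00 to 1.06) with median-of-ratios scaling; no other list's ratio crossed 1 under the alternatives tried, which were other pseudocounts and minimum levels, stricter cells, other tag margins, median-of-ratios scaling, and leaving out the KRT81-high or the deepest 5% of cells. The 114 genes higher and 51 lower in HTO5/HTO9 than in HTO4/HTO10 became 61 and 12 with a pseudocount of 50 CPM and 53 and 14 with a mean of at least 100 CPM, so that the share of calls that were higher went from 69.1% to 83.6% and 79.1%; with a pseudocount of 1 CPM 88 were lower. The 8 genes that fell at every step became 4 with either a pseudocount of 50 CPM or a minimum of 100 CPM, 2 with stricter cells (at least 2000 genes and at most 10% mitochondrial) and 5 without the deepest cells. The interferon gamma ratio of 3.29 was 3.11 with stricter cells, 3.08 with a tag margin of 2, 3.45 with median-of-ratios scaling and 3.38 without the deepest cells. The NF-κB ratio of 0.784 was 0.728 with stricter cells and 0.821 with median-of-ratios scaling, and the MHC class II ratio of 37.8 was 23.8 with a tag margin of 2. Without the KRT81-high cells 119 genes were higher and 50 lower. Of the values of cell-to-cell spread, 4 then moved and 8 did not, and of the shares of cells with a UMI 3 moved and 21 did not. The correlations between scores were not computed without these cells. The causes were not tested. Stricter cells left 114, 151, 37 and 80 cells. Leaving out the cells with the most IDO1 or CXCL8 was chosen after seeing the data. Of the values of cell-to-cell spread under alternatives, 32 moved and 28 did not; those with stricter cells stand in the report. Without thinning, IDO1 was seen in 19.2%, 62.9%, 94.2% and 97.3% of cells. No replicate could be left out, and no paired analysis was possible because each condition had 1 culture.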
